A study of Mus musculus with 89 samples.

Results

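Cytosolic ribosomal protein genes were followed through the forebrains of mouse embryos of 2 Down syndrome models. A probe set was taken when its only gene symbol was Rpsa, Rplp followed by a digit, or Rpl or Rps followed by a digit. Ribosomal S6 kinases, the Rps19 binding protein, pseudogenes and paralogues whose symbols end in l or l1 were left out. The rule gave 58 of 22206 probe sets, of which 19572 had 1 gene symbol. Each of the 58 stands for a different gene, with 22 genes of the small subunit, 31 of the large subunit, 2 of the stalk (Rplp0 and Rplp1) and 3 retrogenes or related genes (Rpl37rt, Rps27rt and Rps23rg1). The rule used no measured value. Rpl10, Rplp2, Rps2, Rps3, Rps27a and some other cytosolic ribosomal protein genes are not analysed here.

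In Ts65Dn mice an additional small chromosome holds a distal part of chromosome 16, rich in orthologues of human chromosome 21 genes, and a proximal part of chromosome 17 that is not orthologous to it. Ts66Yah mice carry the extra chromosome without the chromosome 17 part. The whole-genome arrays measured one forebrain each, taken at embryonic day 18.5, from 18 EupTs65Dn (euploid) and 23 Ts65Dn embryos of 6 litters and from 24 EupTs66Yah (euploid) and 24 Ts66Yah embryos of another 6 litters. All groups shared a mixed B6 and C3H background and received no treatment. Ts65Dn came from trisomic dams mated with B6EiC3Sn.BLiAF1/J males. The Ts66Yah colony descended from founder females and was expanded by in vitro fertilization with sperm of a few males, so it rests on few animals.

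Cytosolic ribosomes consist of a small subunit, which reads the messenger RNA, and a large subunit, which joins amino acids into protein. Each subunit is a scaffold of ribosomal RNA that carries many different proteins in single copy, and the cell makes these proteins in matched amounts. Their messenger RNAs typically begin with a run of pyrimidines at the very start, the terminal oligopyrimidine tract, through which mTORC1 signalling sets how strongly they are translated. In the late embryonic forebrain, ribosome production is high in dividing progenitors and in neurons that extend processes.

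All 58 genes were found in the RefSeq gene table, on 19 chromosomes. Rpl35a lies on chromosome 16, outside the triplicated part, and 5 genes lie on chromosome 17, outside the part that Ts65Dn carries in extra copy. Thus 0 of the 58 genes was triplicated in either model. Rps4x, Rpl36a and Rpl39 are X-linked. Start regions were in the RefSeq promoter table (GRCm38.p6) for 46 of the 58 genes, with 55 start sites. The longest run of C and T letters was searched on the gene's own strand, from 20 bases before to 50 bases after each start. It had 7 or more letters at 42 of 55 starts (76.4%), against 37.7% of all 32841 starts in the table, and 10 or more at 58.2% against 12% of all starts. The median longest run was 10 letters over the starts of the set and 6 letters over all starts.

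The start regions of 13 genes are given in 30 bases around this run, 5′ to 3′ on the strand of the gene, with the run in capitals. They belong to genes with the smallest p in Ts66Yah (Rps15, Rpl10a, Rpl38 and Rps13) and to genes that followed the rest of the set most closely (Rpl7a, Rps10, Rps13, Rps27rt and Rpl35) or least closely (Rpl23, Rpl22, Rps6, Rpl4 and Rpl36a) from embryo to embryo, by the smaller r of both colonies. Rps13 stands in both sets.
Rps15: gcagcccgtaCTTCCTTTTCCgagtaaccg
Rpl10a: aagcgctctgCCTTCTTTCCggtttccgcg
Rpl38: ggaagcctcgTTCTTTCCCCgttctcttcg
Rps13: tgagtggcgtcaCTTCCTgtgcggcttgat
Rpl7a: cacaaTTCCCTCTTCTTTCTTTCTCCagca
Rps10: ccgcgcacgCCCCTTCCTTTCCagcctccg
Rps27rt: cggcggtgacgaCCTCCCTacgagaacatg
Rpl35: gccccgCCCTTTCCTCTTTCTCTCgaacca
Rpl23: gagtgggcggggCCTCCCgttcatatccca
Rpl22: aatatcagcgctgCTTCTggaatgttccag
Rps6: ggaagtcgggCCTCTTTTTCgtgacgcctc
Rpl4: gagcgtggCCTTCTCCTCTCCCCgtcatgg
Rpl36a: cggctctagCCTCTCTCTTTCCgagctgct
In GRCm38.p6 the Rps15 stretch is chr10:80292446-80292475 (plus strand), that of Rpl7a is chr2:26910788-26910817 (plus strand) and that of Rpl23 is chr11:97782404-97782433 (minus strand). The run had 11 letters in Rps15, 21 in Rpl7a, 7 in Rps27rt, 5 in Rpl22 and 6 in Rpl23 and Rps13. It was the longest anywhere in the searched window and need not be a tract at the very start of the messenger RNA. Counted from the start, it began at base 26 in Rps15, at base 19 in Rpl23 and at base -14 in Rpl7a. A gene with several starts, such as Rpl10a with 2, is shown at the start with the longest run. Rps6, Rpl4 and Rpl36a, among the genes least like the rest, had runs of 10, 15 and 13 letters, so a short run did not mark all of them, nor did a long run mark all of the genes most like the rest. Over the full 300 bases of each start and on both strands, the letters CCGGAAG, an ETS type motif, occurred at 36.4% of the 55 starts and at 8.86% of all starts. The letters AAGATGG, which include the core bound by YY1, occurred at 16.4% against 6.34%, and the TATA box letters TATAAA at 9.09% against 13.6%. These are matches of letters and not measured binding sites.

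Several arrays stood apart from their groups. One EupTs66Yah array, of litter WT18, had a standard deviation over probe sets of 1.13, against 2.23 to 2.39 in the other 23 arrays of its group, and is called the low-spread array. The mean log2 signal of the 58 genes was 6.50 on it, while the other Ts66Yah colony arrays ran from 10.83 to 11.35. Tests of that colony are therefore given with and without it, and its values across embryos without it unless stated. Judged by genes of the triplicated chromosome 16 part, 1 Ts65Dn, 1 EupTs66Yah and 2 Ts66Yah arrays lay nearer to the other genotype of their colony than to their own, and 17 arrays had Y-linked signal that went against the labelled sex. Array means were between 5.26 and 5.33 in the Ts65Dn colony and between 6.05 and 6.41 in the Ts66Yah colony, so levels of the colonies are set side by side and not tested. Of 10 forebrain identity genes, 9 or 10 lay above the array median in each group, while of 11 hindbrain and midbrain genes 1 did so in the Ts65Dn colony and 5 or 6 in the Ts66Yah colony.

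The set was strongly expressed: 57 of its 58 genes lay at or above the median signal of all probe sets, and the exception was the retrogene Rps23rg1. Mean signal of the 58 genes was 10.32 ± 0.089 (SD, n = 18) in EupTs65Dn and 10.34 ± 0.095 (SD, n = 23) in Ts65Dn. It was 11.01 ± 0.063 (SD, n = 23) in EupTs66Yah without the low-spread array, 10.83 ± 0.92 (SD, n = 24) with it, and 11.04 ± 0.12 (SD, n = 24) in Ts66Yah. Trisomic and euploid embryos of each colony overlapped, from 10.09 to 10.48 in Ts65Dn against 10.16 to 10.45 in EupTs65Dn, and from 10.85 to 11.35 in Ts66Yah against 10.83 to 11.10 in EupTs66Yah without the low-spread array. The forebrain is a mixture of cells, so fewer cells of a type and less RNA per cell cannot be told apart. Ribosomal protein genes also have many near-identical processed copies, and how far a probe set counts such copies was not tested.

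The first comparison asked whether the extra chromosome of Ts65Dn goes with other levels of these transcripts. By limma, with p-values of all 22206 probe sets adjusted together (Benjamini-Hochberg, 10%), 0 of the 58 genes passed, against 0.491% of all probe sets (109). At an unadjusted p under 0.05 there was 1 gene of 58 (1.72%), against 5.79% of all probe sets, and the unpaired test of the series called 0 as well. The log2 difference, Ts65Dn minus EupTs65Dn, ran from -0.090 to 0.12 over the set with a median of 0.019, and the median of all probe sets was -0.0021. Means were higher in Ts65Dn for 45 genes and lower for 13. The 95% interval lay within 0.8-fold to 1.2-fold, the ratios the series used as limits, for 56 of the 58 genes.

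In the small subunit 0 of 22 genes passed in Ts65Dn. Rps6, the substrate of the S6 kinases, had a median of 10.57 in EupTs65Dn (10.53 to 10.70) and of 10.63 in Ts65Dn (10.30 to 10.79). Rps3a1 had the lowest difference, -0.090 (SE 0.066, adjusted p = 0.93). Rps15, needed to move new small subunits out of the nucleus, differed by 0.068 (SE 0.051, adjusted p = 0.93).

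In the large subunit 0 of 31 genes passed. Rpl19, which helps to bridge the subunits, had the smallest p. Its log2 signal had a median of 10.91 in EupTs65Dn (10.75 to 11.02) and of 11.01 in Ts65Dn (10.75 to 11.16). The groups overlapped, although 10 of 23 Ts65Dn embryos lay above the highest EupTs65Dn embryo. The difference was 0.093 (SE 0.040), or 1.07-fold, with an adjusted p of 0.77. Rpl5 and Rpl11 form a complex that restrains Mdm2, the inhibitor of p53, when ribosome assembly fails. Rpl11 differed by 0.076 (adjusted p = 0.87), and Rpl5 had a median of 10.81 in EupTs65Dn and 10.84 in Ts65Dn. Rpl23, which also binds Mdm2, differed by 0.077 (adjusted p = 0.89). The 3 genes other than Rps3a1 with the smallest p among lower means were Rpl35a at -0.077, Rpl3, a core protein of the catalytic centre, at -0.044, and the stalk base gene Rplp0 at -0.041, all with an adjusted p of 0.97. Its stalk partner Rplp1 differed by 0.093 (adjusted p = 0.89).

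In Ts66Yah 0 of the 58 genes passed with all arrays, by limma at 10%, against 0.171% of all probe sets (38), and 1 had an unadjusted p under 0.05, Rpl10a at 0.30 (adjusted p = 0.48). This is 1.72% of the set, against 10.2% of all probe sets. With these arrays all 58 means were higher in Ts66Yah, with a median log2 difference of 0.22 (all probe sets, 0.043), and the 95% interval reached beyond 0.8-fold to 1.2-fold for all but 4 genes. Without the low-spread array 35 means were higher and 23 lower, with a median of 0.018 (all probe sets, 0.0044). That median was -0.026 with each array centred on its median and -0.0012 without litter WT11, so its sign was not stable. One gene then passed, Rps15, against 0.932% of all probe sets (207), and the 95% interval lay within 0.8-fold to 1.2-fold for 56 genes. At an unadjusted p under 0.05 there were 5 genes (8.62%), against 12.1% of all probe sets. The count of 1 in 58 is 1 gene, and nothing about the set is read from it.

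**Figure D1:**
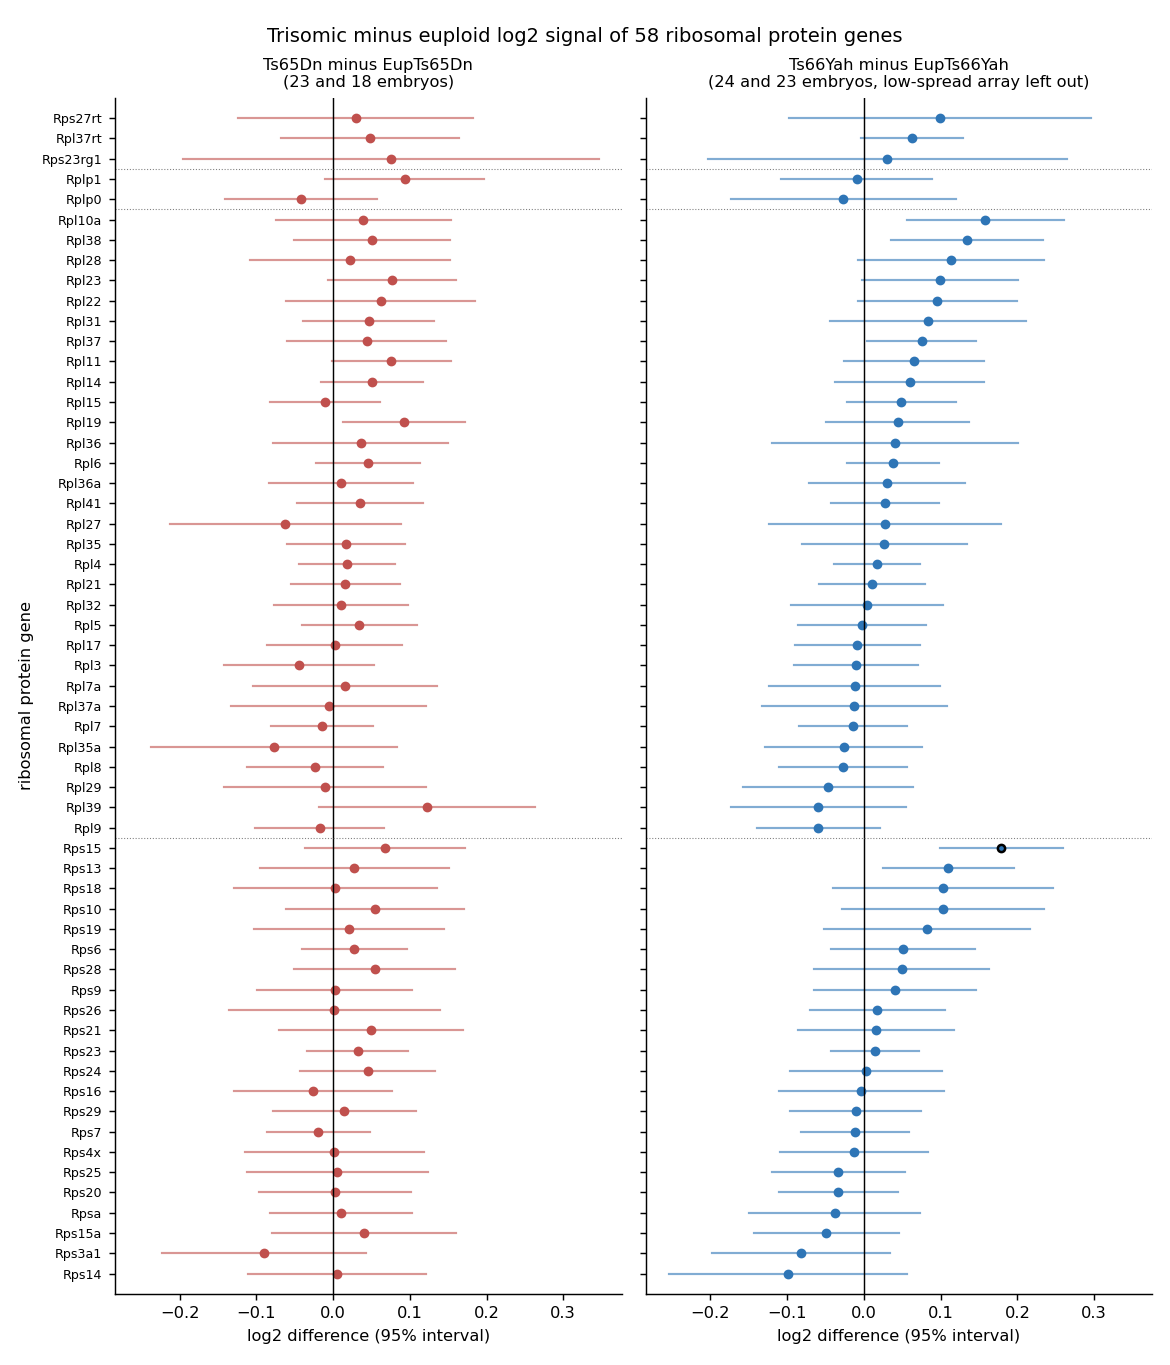
Log2 difference, trisomic minus euploid, of each of the 58 genes (rows, by small subunit at the bottom, large subunit, stalk, and retrogenes at the top) with its 95% interval from limma, in Ts65Dn (left) and in Ts66Yah without the low-spread array (right). The points lie between -0.090 and 0.12 on the left and between -0.099 and 0.18 on the right, and the black ring marks Rps15, the one gene past 10%.

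Rps15 signal was higher in Ts66Yah without the low-spread array. It ran from 11.98 to 12.39 with a median of 12.15 in 23 EupTs66Yah embryos and from 11.91 to 12.57 with a median of 12.36 in 24 Ts66Yah embryos. The groups overlapped, with 22 of 24 Ts66Yah embryos above the euploid median and 9 above the highest euploid embryo. The difference was 0.18 (SE 0.040), or 1.13-fold, with an adjusted p of 0.015 by limma. With the low-spread array, which read 7.61 for Rps15, it was 0.37 (SE 0.19, adjusted p = 0.49). The mean was higher in Ts66Yah in each of the 6 litters, by 0.029 in WT18 to 0.26 in WT12. These litters are small, with 1 euploid embryo in WT11 and 2 in WT13. Without the low-spread array and with the litter as a replicate block the difference was 0.14 (adjusted p = 0.065).

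The Rps15 call was lost under some choices. Without the low-spread array, its adjusted p rose to 0.24 when litter WT12 was left out (difference 0.16) and to 0.12 when WT15 was left out (0.17), and centring each array on its median gave 0.14 with a difference of 0.14. Without the 3 arrays of this colony at the other genotype's chromosome 16 level, the difference was 0.19 (adjusted p = 0.015). In the comparison without the low-spread array, which called 0.932% of all probe sets, 11 of 12 markers of postmitotic neurons had higher means in Ts66Yah and 0 passed. Of 15 markers of cycling progenitors 11 had higher means and Aurkb passed, by 0.23 (adjusted p = 0.092), and in choroid plexus 2 of 9 markers passed, both genes of the triplicated part. The part of these markers in the Rps15 difference was not tested, and nothing about cell types is read from their counts.

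Rpl10a, a protein of the stalk through which spent transfer RNA leaves the large subunit, came next. Without the low-spread array its median was 11.12 in EupTs66Yah (10.73 to 11.45) and 11.26 in Ts66Yah (10.94 to 11.66). The difference was 0.16 (SE 0.051, adjusted p = 0.17). Its mean was higher in Ts66Yah in each of the 6 small litters, by 0.057 in WT19 to 0.27 in WT12. Rpl38, known in mice for its part in the translation of Hox messenger RNAs, differed by 0.13 (SE 0.049, adjusted p = 0.24). Rps13 differed by 0.11 (SE 0.042, adjusted p = 0.27) and Rpl37 by 0.075 (adjusted p = 0.38). These 4 did not pass. The lower means with the smallest p were those of Rpl9 (-0.060, adjusted p = 0.57), Rps3a1 (-0.082, adjusted p = 0.59), Rps14 (-0.099, adjusted p = 0.63) and the exit tunnel protein gene Rpl39 (-0.059, adjusted p = 0.71).

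**Figure D2:**
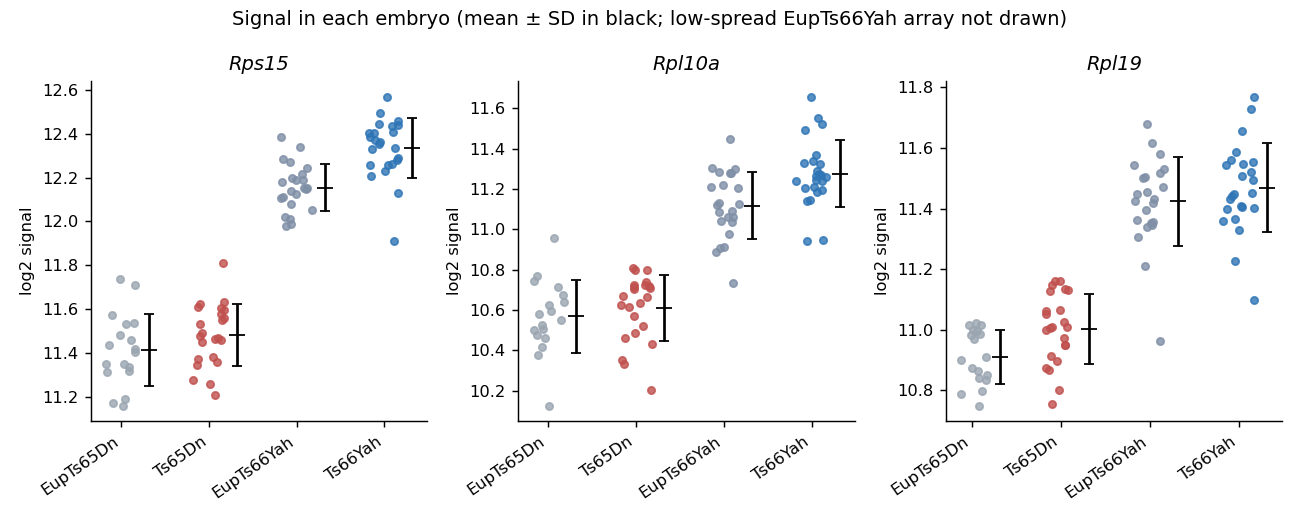
Log2 signal of Rps15, Rpl10a and Rpl19 in each embryo of the 4 groups (points) with the group mean and SD (black), the low-spread array left out. Ts66Yah points of Rps15 have a median of 12.36 against 12.15 in EupTs66Yah, and trisomic and euploid points of each colony overlap in every panel. Array means differ between the colonies, so their levels are not compared.

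The models were then compared through the difference of their trisomy effects. By limma, 0 of the 58 genes passed in the fit of all 89 arrays, against 0.00901% of all probe sets, and 0 had an unadjusted p under 0.05, against 7.05% of all probe sets. Without the low-spread array 0 passed against 0.149% of all probe sets, and 1 (1.72%) had an unadjusted p under 0.05, against 7.14%. That gene was Rpl39, with an effect larger in Ts65Dn by 0.18 (SE 0.088, adjusted p = 0.69). For Rps15 the effect in Ts65Dn minus that in Ts66Yah was -0.11 (SE 0.062, adjusted p = 0.74, 95% interval -0.23 to 0.011), so its call in one model and not in the other was not shown to be a difference between them. The controls of the comparisons were different embryos. Side by side and without the low-spread array, 33 genes had a higher mean and 11 a lower mean in both trisomic groups, and 14 had opposite signs. With all arrays these counts were 45, 0 and 13. Across the 58 genes, which are not independent replicates, the effects in the 2 models had a Pearson r of 0.44 without the low-spread array and 0.34 with it.

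Genes that assemble, regulate or accompany ribosomes were described by lists. Of 50 ribosome biogenesis genes, 19 elongation and terminal oligopyrimidine genes, 12 initiation factors, 16 genes of mTORC1 and S6 kinase signalling and 16 targets of nucleolar stress and p53, 0 passed in Ts65Dn, and 0 passed in Ts66Yah with or without the low-spread array. Of all probe sets 0.491% passed in Ts65Dn, 0.171% in Ts66Yah with all arrays and 0.932% without the low-spread array. At such shares few or no calls are due in lists of this size, and nothing about the lists is read from their counts. In Ts65Dn the median log2 differences of these lists ran from -0.048 to 0.0081. Those of Ts66Yah ran from -0.0062 to 0.063 without that array. Fau, which encodes a small-subunit protein fused to a ubiquitin-like protein, differed by 0.015 and 0.092 (adjusted p = 1 and 0.54). Of 8 paralogues outside the rule, such as Rpl3l and Rps4l, 0 passed. Of 9 ribosome quality control genes only Ltn1 passed, a ubiquitin ligase for stalled nascent chains that lies in the triplicated part, with a 1.28-fold rise in Ts65Dn and a 1.30-fold rise in Ts66Yah without that array. Of 76 mitochondrial ribosomal protein genes Mrpl39, also triplicated, rose 1.38-fold in Ts65Dn (limma adjusted p = 2.5e-05) and 1.30-fold in Ts66Yah without that array (adjusted p = 0.0047). Mrps18b rose 1.19-fold in Ts66Yah without that array (limma adjusted p = 0.074). With all arrays neither gene passed in Ts66Yah.

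From embryo to embryo the genes of the set varied largely in common. After the mean of each genotype group was subtracted, the SD of a gene between embryos had a median of 0.15 in the Ts65Dn colony (41 embryos) and of 0.16 in the Ts66Yah colony (47 embryos, low-spread array left out). Among probe sets at or above the median signal, which were not matched to the set in level, it was 0.21 and 0.22. The median Pearson r over all 1653 pairs of genes was 0.35 in the Ts65Dn colony and 0.32 in the Ts66Yah colony, against 0.015 and 0.045 over pairs of probe sets at or above the median signal. Of the pairs 92.2% and 82.8% had r above 0. With the low-spread array the median r in the Ts66Yah colony was 0.96. Without that array, pairs within the small subunit had a median r of 0.46 and 0.43, and pairs within the large subunit 0.28 and 0.26. Pairs of 48 nuclear genes of oxidative phosphorylation had a median r of 0.28 in the Ts65Dn colony and 0.36 in the Ts66Yah colony. Variation in common was thus not particular to the set. These values are descriptions, because each array sets all its genes at once, and the scale of an array and its RNA are shared by them. Centred on each array's median, the median r was 0.41 and 0.47 for the set and 0.34 and 0.48 for the oxidative phosphorylation genes.

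Genes were ordered by the smaller of their r in the 2 colonies, without the low-spread array. By this measure Rpl7a, Rps10, Rps13, the Rps27 retrogene Rps27rt and Rpl35 followed the mean of the other members most closely. Rpl7a, a large-subunit protein, had r of 0.89 in the Ts65Dn colony and 0.83 in the Ts66Yah colony. Rps10 had r of 0.83 and 0.82. Rps15, the gene that passed in Ts66Yah, had r of 0.68 and 0.47. At the other end of this order stood Rpl23, Rpl22, Rps6, Rpl4 and Rpl36a, each with its smaller r in the Ts66Yah colony. Rpl23 had r of 0.16 and -0.49, Rpl22 0.48 and -0.24, Rps6 0.33 and -0.21, Rpl4 -0.070 and -0.17, and Rpl36a 0.46 and 0.17. Rpl4, a protein of the exit tunnel, also had the smallest SD between embryos in both colonies, 0.068 in each, so its r rests on little variation. Rpl5 differed between the colonies with r of 0.19 and 0.81, a difference that was not tested. Rps23rg1 had the largest SD in both colonies, 0.44 and 0.41.

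**Figure D3:**
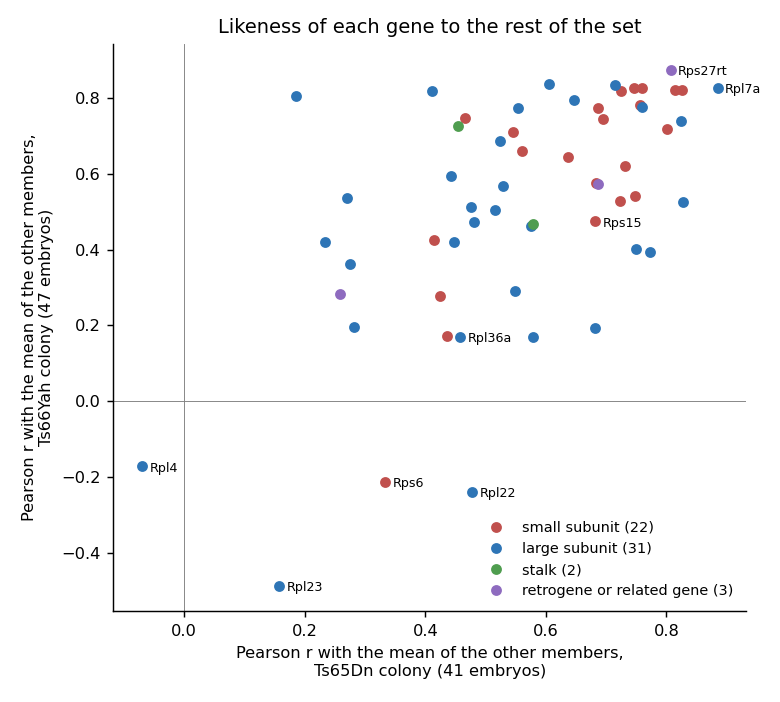
Pearson r of each gene with the mean of the other members across embryos, in the Ts65Dn colony (horizontal) and in the Ts66Yah colony without the low-spread array (vertical), coloured by role. Most genes lie above 0 in both colonies, Rpl7a and Rps27rt lie at the upper right, and Rpl23, Rpl22, Rps6 and Rpl4 lie below 0 on the vertical axis.

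The mean of the set varied alongside that of energy metabolism genes. Across embryos its r with the mean of 48 nuclear genes of oxidative phosphorylation was 0.89 in each colony (Spearman rho 0.86 and 0.84). Without the 2 embryos farthest from the median it was 0.85 and 0.83. With the mean of 76 mitochondrial ribosomal protein genes r was 0.79 and 0.78, although pairs of those genes had a median r of only 0.093 and 0.13. With ribosome biogenesis genes, which make ribosomes but are not part of them, r was 0.069 and -0.084, and 0.29 and 0.38 once arrays were centred on their medians. With elongation and terminal oligopyrimidine genes it was 0.33 and 0.57, and 0.53 and 0.85 once centred. With markers of postmitotic neurons it was -0.16 and -0.46, and with the SD of the array 0.055 and -0.42, or -0.16 and -0.70 once arrays were centred. These values leave out the low-spread array. With it, r in the Ts66Yah colony was 0.97 for biogenesis, 0.99 for elongation, 0.96 for neurons and 0.95 for the array SD, so that 1 array turned the sign of several. In all 100 such relations were computed, over lists, colonies and scalings, and none carries a test.

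**Figure D4:**
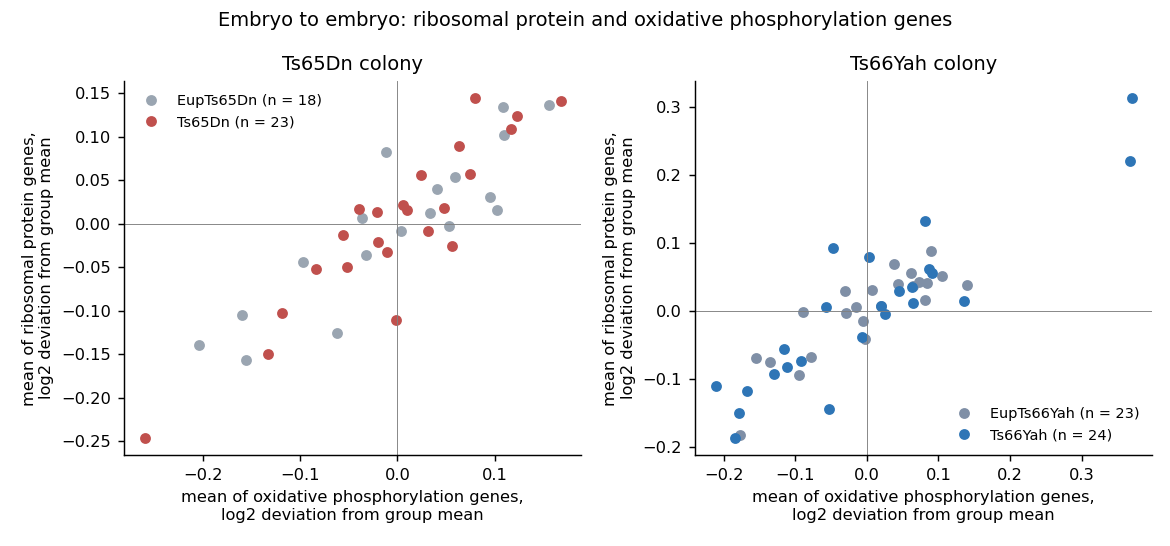
Mean log2 signal of the 58 genes (vertical) against that of 48 oxidative phosphorylation genes (horizontal) in each embryo, as deviations from the mean of its group, for the Ts65Dn colony (left) and the Ts66Yah colony without the low-spread array (right). Trisomic and euploid embryos lie along the same band, with r of 0.89 in each colony, and 2 Ts66Yah embryos lie far to the upper right.

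By the smaller r of both colonies, the named probe sets outside the set most like its mean were Tmem258, Cox4i1, Hint1, Ndufb9, Ndufb4, Snrpd2, Cenpv, Tomm5, Atp5g1 and Mrpl57. Cox4i1, Ndufb9, Ndufb4 and Atp5g1 encode parts of the respiratory chain or ATP synthase. Tmem258 had r of 0.78 and 0.79. The least like were Acvr2a, Selenoi, Zfp445, Chd6 and Arel1, with r from -0.69 to -0.77. Genes of either end differed in genomic length. The 194 genes with r above 0.5 in both colonies had a median genomic span of 5.75 kb, the 160 genes with r below -0.5 one of 60.5 kb, and the 58 members one of 3.45 kb, against 26.9 kb over 10081 genes. Across these genes, which are not independent replicates, Spearman's rho of r with span was -0.31 in the Ts65Dn colony and -0.40 in the Ts66Yah colony. The integrity of the RNA was above the same minimum for all samples per the labels, and the part of RNA quality in this common variation was not tested.

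No gene of the set passed between litters. With genotype in the model, limma's F test over litters called 0 of the 58 genes in the Ts65Dn colony, against 0.378% of all probe sets. It called 0 in the Ts66Yah colony with all arrays, against 0% of all probe sets, and 0 without the low-spread array, against 0.0901%. At an unadjusted p under 0.05 there were 15 genes (25.9%) in the Ts65Dn colony, against 10.7% of all probe sets. In the Ts66Yah colony there were 1 gene (1.72%) with all arrays, against 3.87% of all probe sets, and 23 (39.7%) without the low-spread array, against 11.5% of all probe sets. These genes vary together, so such counts are not counts of separate events. The smallest adjusted p-values were 0.13 for Rpl28 and 0.17 for Rps18 in the Ts65Dn colony, and 0.14 for Rps4x and 0.17 for Rpl7a in the Ts66Yah colony without that array. Litter means of the 58 genes lay between 10.25 (TS113) and 10.40 (TS137) in the Ts65Dn colony. In the Ts66Yah colony they lay between 10.97 (WT18) and 11.16 (WT11), the latter a litter of 4 embryos.

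**Figure D5:**
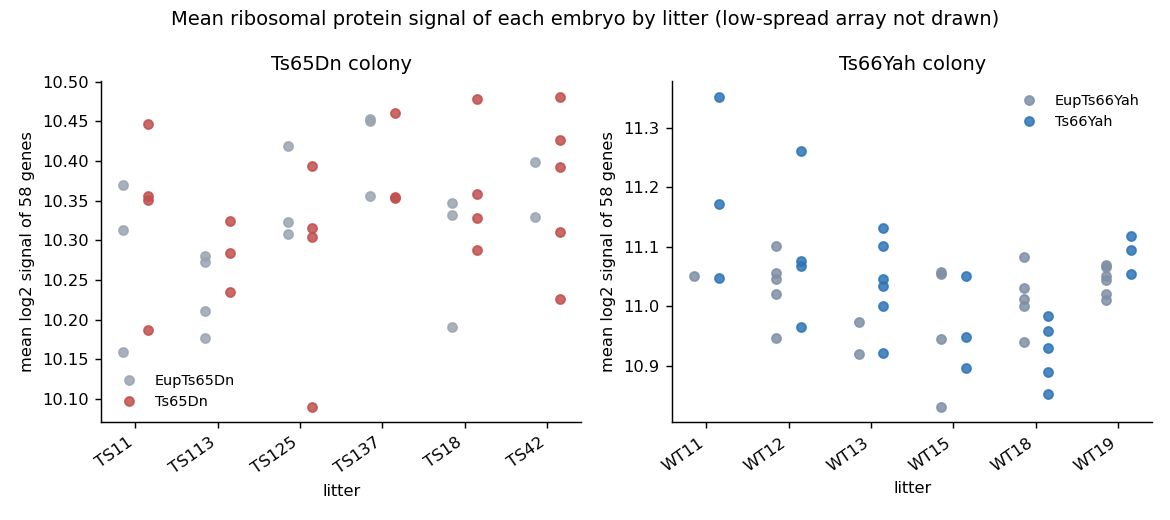
Mean log2 signal of the 58 genes in each embryo (points) by litter and genotype, with the Ts65Dn colony on the left and the Ts66Yah colony without the low-spread array on the right. Litter means lie between 10.25 and 10.40 on the left and between 10.97 and 11.16 on the right, single embryos run from 10.09 to 10.48 and from 10.83 to 11.35, and trisomic and euploid littermates overlap in most litters.

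Sexes were compared because 3 of the genes are X-linked. As labelled, limma called 0 of the 58 genes between males and females in the Ts65Dn colony, against 0.0675% of all probe sets. It called 0 in the Ts66Yah colony with all arrays against 0.185%, and 0 without the low-spread array against 0.401%. At an unadjusted p under 0.05 there were 12 genes (20.7%) in the Ts65Dn colony, against 5.76% of all probe sets. In the Ts66Yah colony there were 0 with all arrays, against 4.66%, and 1 (1.72%) without the low-spread array, against 4.97%. Without the 8 arrays of the Ts65Dn colony whose Y-linked genes went against the label, 1 gene passed, against 0.437% of all probe sets, and without such arrays and the low-spread array 0 passed in the Ts66Yah colony, against 0.748%.

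The gene that then passed was Rps20, a protein of the small subunit. In the Ts65Dn colony its signal ran from 10.14 to 10.68 with a median of 10.42 in 18 females and from 10.46 to 10.72 with a median of 10.59 in 15 males. The sexes overlapped, and the difference, male minus female with genotype in the model, was 0.19 (SE 0.047, adjusted p = 0.092). In the Ts66Yah colony, with the corresponding arrays left out, Rps20 had a mean of 11.19 in 17 females and 11.20 in 22 males. In the fit of the Ts65Dn colony 53 of the 58 genes had a higher mean in males, with a median difference of 0.077 (all probe sets, -0.0052). In the Ts66Yah colony 51 of 58 did, with a median of 0.026 (all probe sets, -0.00020). The X-linked genes stood within this range in the Ts65Dn colony, at 0.12 for Rpl36a, 0.15 for Rpl39 and 0.032 for Rps4x (adjusted p = 0.63, 0.76 and 0.95). In the Ts66Yah colony they differed by -0.036, -0.0020 and 0.088, each with an adjusted p of 1. Because the 58 genes vary together, the counts of higher means in males are not counts of separate events. In the Ts65Dn colony the mean of the set was 10.29 ± 0.092 (SD, n = 18) in females and 10.37 ± 0.075 (SD, n = 15) in males. In the Ts66Yah colony it was 11.01 ± 0.098 (SD, n = 17) and 11.04 ± 0.10 (SD, n = 22), so the sexes overlapped.

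The arrays of the euploid groups lay at different levels, and these groups were not tested against each other. The 58 genes lay higher in EupTs66Yah without the low-spread array by a median of 0.73. All probe sets did so by 1.06, and probe sets at or above the median signal, as 57 of the 58 genes are, by 0.91. Both stalk genes lay at the low end of the differences of the set. Rplp1 differed by -0.064 and Rplp0 by 0.15, whereas Rps26 differed by 1.23 and Rps23rg1 by 1.34.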

How the data were processed

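The deposited log2 values of 89 arrays were made by RMA per the submitters' processing notes, with version and settings not given in the sources used here. All 22206 probe sets were used as deposited; 2634 carry no gene name in the platform annotation used. Groups, litters (dams) and sexes follow the labels, which give 24 Ts66Yah embryos where the series text counts another number. Each trisomic group was fitted against its own euploid group with limma 3.58.1 in R 4.3.3 (lmFit and eBayes, two-sided), adjusted by Benjamini-Hochberg over all probe sets at 10%. The difference of effects used all 4 groups, the litter and sex tests kept genotype in the model, and the fits were tested on simulated data. P-values measure the spread between embryos, which share litters. An array counted as low-spread when its SD was under 0.75 times its group's median. Litters pair embryos through their dam, per the labels. Mean deviations of trisomic and euploid littermates had r from -0.18 to 0.35. The main fit does not block on litter, and the fit with the litter as a replicate block is an alternative. Without the low-spread array, that block raised the limma adjusted p of Rps15 from 0.015 to 0.065. Member rule and lists were chosen with earlier results of these data known. Named genes are those past 10%, otherwise the 4 with the smallest p in each direction, the 5 most and 5 least like the other members, the extremes of SD, and fixed genes of known role; the rule also listed the highest and lowest levels, left out because levels of different probes are not ranked. Alternatives were the litter block, sex, array SD, quantile normalization, median centring, a signal filter, the unpaired t-test of the series with Benjamini-Hochberg adjustment, a threshold of 0.05, the looser criterion that the series applies to small p-values, and leaving out litters or arrays; leaving out the low-spread array, alone or with the array SD or the litter block, was planned, while the other settings run without it and the fits without arrays at odds with the labelled sex were added after seeing the data. Figures used matplotlib 3.10.9 in Python 3.11.15. Precision is limited by how many arrays each group has.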

Additional observations from a re-analysis of the deposited data

How the results depend on the processing

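In Ts65Dn 0 genes of the set passed under each of 16 alternatives, and the median difference stayed between 0.0064 and 0.040. In Ts66Yah with all arrays, where 0 passed and the median was 0.22, 1 gene passed without the low-spread array (median 0.018), also with array SD as a covariate (1, 0.039) or the litter as a replicate block (1, 0.016), and without the 6 narrower EupTs66Yah arrays (1, 0.018). Without litter WT18, which holds that array, 2 passed (median 0.047), and with array SD as a covariate and all arrays the median was -0.081. Without the low-spread array, where 1 gene passed, settings chosen after seeing the data gave 0 with median centring, 0 without litter WT12, 0 without litter WT15, 2 without litter WT18 and 2 among probe sets at or above the median signal, where Rpl10a joined (adjusted p = 0.098). Rps15 then passed in 12 of 15 alternatives, with differences of 0.14 to 0.22 and adjusted p-values of 0.0035 to 0.24. Of all probe sets 0.491% passed in Ts65Dn, 0.171% in Ts66Yah with all arrays and 0.932% without the low-spread array. Shares under the other settings of the genotype comparisons are not given here, so nothing about the set is read from a count of 0, 1 or 2. The litter block changed no count of called genes of the set in the genotype comparisons or in the difference of effects. It was not run for the sexes or the other lists. The median difference without the low-spread array turned to -0.026 with median centring and to -0.0012 without litter WT11. Between sexes of the Ts65Dn colony 1 gene passed without arrays whose Y-linked genes went against the label, also a later choice. The median pairwise r of the Ts66Yah colony, 0.96 with all arrays, was 0.32 without the low-spread array and 0.47 with centring as well. Among differences that never passed, the sign turned for Rpl38 in Ts65Dn without litter TS42 (-0.0080) and, in Ts66Yah, for Rpl19 with array SD as a covariate (-0.059) and without the narrower arrays (-0.0044) and for Rpl11 with array SD as a covariate (-0.069). The causes were not tested.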
